A study of Rattus norvegicus with 79 samples.

Results

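Messenger RNA in the CA1 field of the hippocampus was compared between 24-month rats that had learned to find a hidden platform in a water maze without impairment and 24-month rats trained with a platform they could see. The members were chosen by sample title, those starting with A HID U (hidden platform, unimpaired) and those starting with A VIS (visible platform), and make up 21 of the 79 arrays of the study, 13 hidden platform and 8 visible platform. No measured value entered the choice of arrays. The whole study covers male Fisher-344 rats aged 3 or 24 months in cage control, yoked (swimming with no platform), visible and hidden platform groups, with 1 array per animal. Aged hidden platform rats were labelled impaired (10 arrays), unimpaired (13 arrays) or B (16 arrays), and the labels do not explain the letter B.

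Both groups compared here shared the strain, the sex, the age, the housing in pairs, the swimming and the tissue. They differed in whether the platform was visible, and the hidden platform group was in addition narrowed to unimpaired learners, while the visible platform group was not split by performance. The labels give no cut-off for impairment, so task and selection for good learning cannot be told apart in this contrast. All animals were killed 24 h after the last trial, and the CA1 cell layer was taken with a 300 µm punch from slices kept in an RNA preservative. The RNA passed through 2 rounds of amplification before labelling. Each animal carried its own number and array, so the spread between arrays includes the spread between animals.

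The hidden version of the water maze requires a rat to locate the platform from cues around the pool and depends on the hippocampus, whereas the visible version can be solved by swimming to a cue and serves as a control for swimming, stress and motivation. CA1 pyramidal neurons are the main output of the hippocampal circuit. Strong synaptic activity in these cells switches on immediate early genes, some of which encode transcription factors (Fos, Egr1) and others proteins that act at the synapse (Arc, the short form of Homer1), and the response is usually followed over minutes to hours after learning. Receptors for glutamate, kinases activated by calcium and the transcription factor CREB are the best studied parts of this pathway.

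Several arrays stood apart, most of them in the visible platform group. The median Spearman correlation of an array with the other 78, across probe sets, was under 0.85 on 4 of 8 visible platform arrays (animals 33, 67, 68 and 97, between 0.645 and 0.794) and on 1 of 13 hidden platform arrays (animal 81, 0.785), against 14 of all 79. These 5 arrays had median signals of 193 to 281, the other 16 of 98.9 to 160.5. Spike-in control probe sets averaged 13.48 to 16.24 on the log2 scale on these 5 arrays, and 9.63 to 12.36 on the others. On array 68 the 3' to 5' ratio of control transcripts was −0.32 on the log2 scale, against 1.19 to 2.44 on the other visible platform arrays. The median standard deviation per probe set was 0.827 among the visible platform arrays and 0.496 among the hidden platform arrays, and became 0.330 and 0.430 once the arrays of low correlation were removed. Differences at 24 months are therefore given below for all arrays, followed for most genes and lists by the value for 12 hidden against 4 visible platform arrays.

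**Figure D1:**
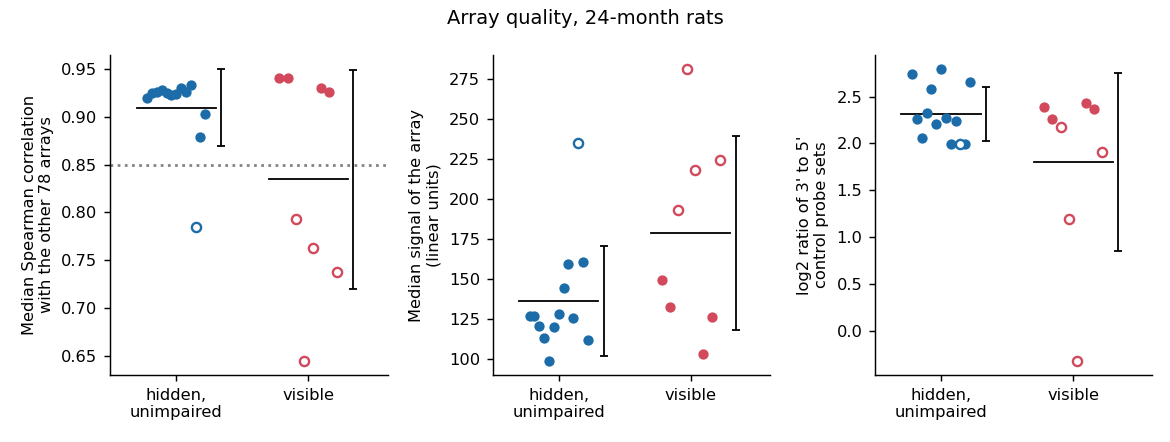
Each point is 1 array of 24-month rats, plotted as its median Spearman correlation to the 78 remaining arrays (left, dotted line at 0.85), the median signal in linear units (middle) and the 3' to 5' log2 ratio of control transcripts (right). Open points are the 4 visible platform arrays and the 1 hidden platform array of low correlation; horizontal lines are means and vertical bars SD of 13 and 8 arrays.

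No probe set passed the threshold of an adjusted p under 0.05 in the fit over all 44 aged arrays of the stated design (limma with Benjamini-Hochberg adjustment over 5244 probe sets, 0.0% called), where each group had its own mean. An unadjusted p under 0.05 was reached by 771 probe sets, 350 higher and 421 lower in hidden platform rats, against 262.2 expected if no probe set differed and all were independent. The smallest adjusted p was 0.0562. Without the arrays of low correlation the count passing was again 0 (0.0% called), with 378 unadjusted, 179 higher and 199 lower, and a smallest adjusted p of 0.411. With limma array weights, which give discordant arrays less influence, 369 probe sets passed, of which 151 were higher and 218 lower in hidden platform rats. In that fit visible platform arrays 31 and 32 had weights of 4.30 and 5.18, arrays 67, 68, 97 and 33 weights of 0.117 to 0.399, and hidden platform array 81 a weight of 0.296.

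The signal of hidden and visible platform rats overlapped for each of the 5244 probe sets when all 21 arrays were used. With only the 12 and 4 arrays kept, 13 probe sets were higher on all 12 hidden platform arrays than on all 4 visible platform arrays, and 16 were lower. Across probe sets the log2 difference followed the mean signal, with a Spearman correlation of 0.429. The median difference was −0.31 in the third of probe sets with the lowest signal and 0.19 in the third with the highest. Over the arrays kept that correlation was 0.034, and the corresponding medians were −0.03 and 0.00. Per gene, on the probe set of highest mean signal, 6.34% of 3234 genes lay higher and 7.51% lower in hidden platform rats at an unadjusted p under 0.05. These shares were 3.25% and 3.93% without the arrays of low correlation. At an adjusted p under 0.05 in the fit with array weights they were 2.94% and 4.39%. Both with and without those arrays, 48 genes lay higher and 43 lower at an unadjusted p under 0.05; the fits share arrays, so this overlap is no independent repeat.

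The 10 genes of smallest p among those higher in hidden platform rats were Grpel1, Pak2, Apmap, Vhl, Ppp1cb, Casp2, Errfi1, Ccnd2, Slc4a4 and Ormdl3, with log2 differences of 0.81 to 1.40. None passed the adjusted threshold (limma, adjusted p 0.126 to 0.265). All 10 kept a positive difference without the arrays of low correlation, 8 of them at an unadjusted p under 0.05, and 8 passed in the fit with array weights. In 9 of the 10 the difference was smaller without those arrays. The 10 genes were picked by p in this same contrast and the fits share arrays. These counts therefore follow in part from the choice of genes. Of the 771 probe sets at an unadjusted p under 0.05 in limma over all arrays, 708 kept their sign without the arrays of low correlation.

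Grpel1 encodes a nucleotide exchange factor for the mitochondrial heat shock protein that pulls proteins into the matrix. Its signal lay between 1261 and 3258 (median 2093) in hidden platform rats, and between 300.6 and 2286 in visible platform rats with a median of 1051. All 13 hidden platform arrays were above the visible platform mean on the log2 scale, and 4 were above every visible platform array. The log2 difference was 1.11 ± 0.26 (SE, n = 13 and 8, limma adjusted p = 0.126) and 0.83 ± 0.22 without the arrays of low correlation (limma adjusted p = 0.411). Grpel1 was called in 4 of the settings tried, with an adjusted p of 0.000184 with array weights and 0.0276 without visible platform array 96. In yoked rats the median signal was 1646, in cage controls 1984 and in impaired hidden platform rats 1884, so the visible platform group had the lowest median of these 5 groups, which do not include the rats labelled B. Against yoked rats, hidden platform rats differed by 0.48 ± 0.26 and visible platform rats by −0.63 ± 0.29 on the log2 scale, and by 0.29 ± 0.18 and −0.53 ± 0.24 without the arrays of low correlation. The 2 contrasts share the yoked arrays.

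Pak2, a kinase acting downstream of the small GTPases Rac and Cdc42 on the cytoskeleton, gave 1068 to 2433 in hidden platform rats and 248.4 to 1076 in visible platform rats. Of the 13 hidden platform arrays, 12 lay above all 8 visible platform arrays, and without the arrays of low correlation the groups did not overlap. The difference of 1.19 ± 0.29 (limma adjusted p = 0.142) became 0.60 ± 0.22 there. The 4 remaining visible platform arrays read 997, 1076, 990 and 977, against a median of 1491 in yoked rats and 1178 in cage controls. Vhl encodes the part of a ubiquitin ligase that binds hydroxylated hypoxia-inducible factor. Vhl signals were 837 to 2091 (median 1469) in hidden platform rats and 416.3 to 1129 with a median of 873 in visible platform rats. All hidden platform arrays lay above the visible platform mean, and without the arrays of low correlation the groups did not overlap. The Vhl difference of 0.86 ± 0.22 (limma adjusted p = 0.167) was 0.67 ± 0.20 without them. Its median was 1229 in yoked and 1321 in cage control rats.

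Casp2, an initiator caspase, was the only gene of the 10 with a larger difference once the arrays of low correlation were removed, 1.49 ± 0.40 against 1.20 ± 0.34 (limma adjusted p = 0.210 over all arrays). Its signal was low, with medians of 271.7 in hidden and 112.5 in visible platform rats. Visible platform arrays 31 and 32 gave 45.7 and 47.3, the lowest of the group, and these are the arrays with the largest weights. A further Casp2 probe set gave −0.29 ± 0.43 in the same comparison, so the probe sets of Casp2 disagreed. Ppp1cb, a catalytic subunit of protein phosphatase 1, also had probe sets that disagreed, 1.40 ± 0.39 on the brighter and −0.02 ± 0.34 on the other, and its difference became 0.50 ± 0.35 without the arrays of low correlation.

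Apmap, a membrane protein described in fat cells, gave a log2 difference of 1.28 ± 0.31 over all arrays and 0.57 ± 0.25 without those of low correlation. Errfi1, a feedback inhibitor of the epidermal growth factor receptor, gave 0.92 ± 0.27 and 0.65 ± 0.25. Ccnd2, a D-type cyclin, gave 0.81 ± 0.24 and 0.73 ± 0.26, but its other probe set gave 0.38 ± 0.38 and −0.04 ± 0.40. Slc4a4, the sodium bicarbonate cotransporter of astrocytes, gave 1.13 ± 0.34 and 0.89 ± 0.32. In these 4 genes, on the probe set of highest mean signal, the unadjusted p remained under 0.05 without the arrays of low correlation. Ormdl3, a regulator of sphingolipid synthesis, gave 1.08 ± 0.33 and 0.53 ± 0.28, and its lowest signal, 142.9, was on visible platform array 68.

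**Figure D2:**
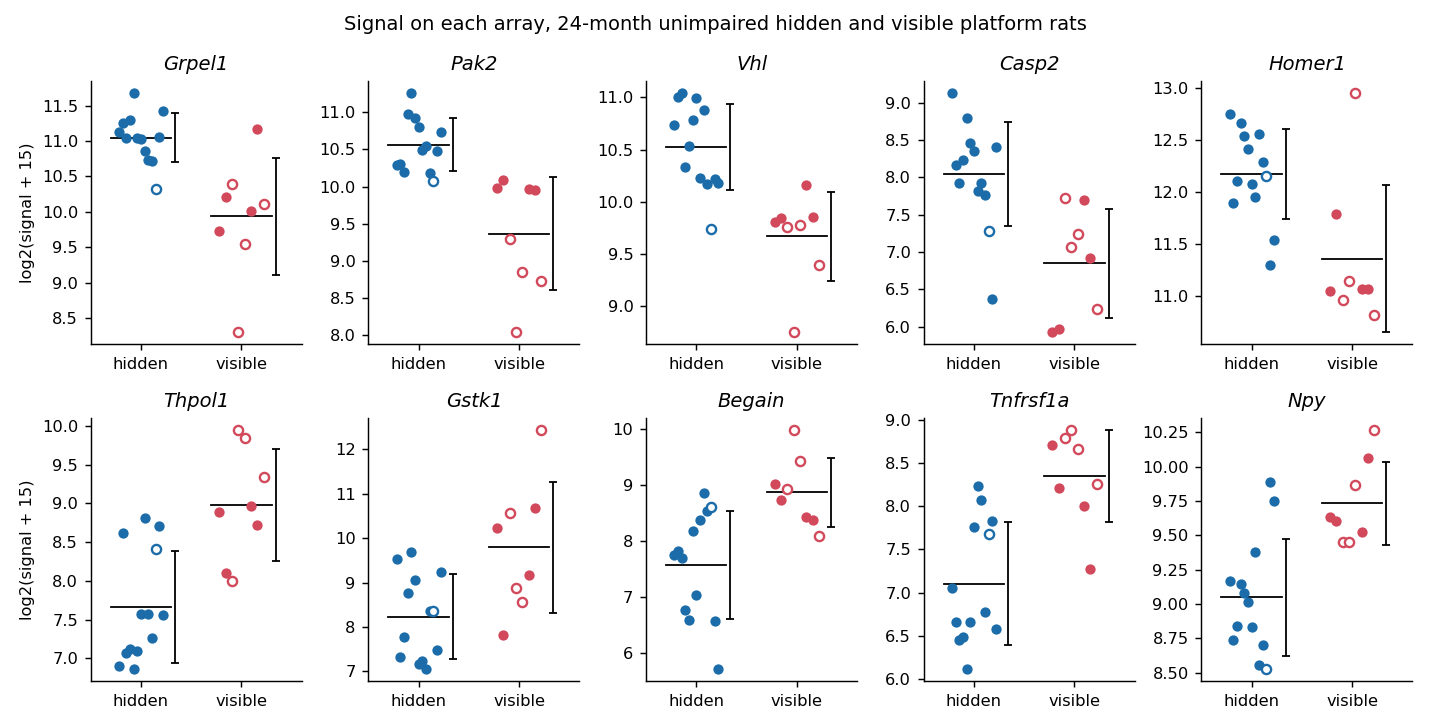
Each point is the signal of 1 array as log2(signal + 15) for 10 genes, with 13 unimpaired hidden platform rats (blue) and 8 visible platform rats (red) of 24 months. Open points are arrays of low correlation, horizontal lines means and vertical bars SD; the clouds overlap in every panel, and for Pak2 and Vhl they separate when open points are left out.

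The 10 genes of smallest p among those lower in hidden platform rats were Thpol1, Mmp2, Gstk1, Begain, Asph, Ccnd1, Tnfrsf1a, Foxq1, Ppp2r2c and Maz, with log2 differences of −1.56 to −0.95. None passed (limma, adjusted p 0.126 to 0.204). In all 10 genes every one of the 13 hidden platform arrays lay below the visible platform mean. Against the mean of the 4 visible platform arrays kept, 8 (Asph) to 11 (Begain) of the 12 hidden platform arrays kept lay below. The 10 genes were picked by p in this same contrast, so these counts follow in part from the choice of genes. All 10 kept the sign and had a smaller difference without the arrays of low correlation, 4 of them at an unadjusted p under 0.05, and 6 passed in the fit with array weights. The choice of genes by p bears on these counts as well. Their signals were low, with hidden platform medians of 59.8 for Foxq1 to 355 for Ccnd1.

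Begain encodes a protein of the postsynaptic density that binds the scaffold PSD-95. Its signal was 37.5 to 447.8 (median 199.4) in hidden platform rats and 255.9 to 995 with a median of 438 in visible platform rats. The Begain difference was −1.29 ± 0.35 over all arrays (limma adjusted p = 0.204) and −1.14 ± 0.41 without those of low correlation. Its other probe sets gave −0.74 ± 0.45 and −0.41 ± 0.33, of the same sign and smaller. Against yoked rats the hidden platform group differed by −0.77 ± 0.35 and the visible platform group by 0.52 ± 0.39, and on the arrays kept by −0.97 ± 0.34 and 0.18 ± 0.44.

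Tnfrsf1a, the main receptor for tumour necrosis factor, gave 54.3 to 285.8 (median 94.9) in hidden and 139.6 to 458.1 (median 340.4) in visible platform rats. The Tnfrsf1a difference of −1.25 ± 0.34 had an unadjusted p of 0.0171 without the arrays of low correlation. Cage controls had a Tnfrsf1a median of 79.5 and yoked rats of 214.9, and the hidden platform median lay between them. Gstk1, a glutathione transferase of mitochondria and peroxisomes, gave −1.56 ± 0.40 and −1.25 ± 0.48, but its other probe set gave −0.00 ± 0.30. Within the visible platform group the Gstk1 signal ran from 209.7 to 5565. Thpol1, for which the difference was −1.32 ± 0.30 and −1.08 ± 0.34, had a further probe set at −0.34 ± 0.40.

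Mmp2, a gelatinase that cuts extracellular matrix, gave −1.36 ± 0.34 over all arrays and −0.67 ± 0.38 without those of low correlation. Its other probe set gave −0.96 ± 0.46 and 0.02 ± 0.39. Ccnd1, another D-type cyclin, gave −0.95 ± 0.26 and −0.17 ± 0.24, with 4 further probe sets at −0.63 ± 0.30, −0.62 ± 0.36, −0.18 ± 0.29 and 0.00 ± 0.31. Asph, an aspartate hydroxylase, gave −1.09 ± 0.30 and −0.47 ± 0.31. Ppp2r2c, a regulatory subunit of protein phosphatase 2A, gave −1.10 ± 0.31 and −0.30 ± 0.30. The transcription factors Foxq1 and Maz gave −1.09 ± 0.30 and −1.12 ± 0.32 over all arrays, and −0.62 ± 0.32 and −0.45 ± 0.24 without those of low correlation. None of these 6 genes reached an unadjusted p under 0.05 without the arrays of low correlation.

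Homer1, read by 6 probe sets, lay higher in hidden platform rats on most of them. It links metabotropic glutamate receptors to intracellular calcium stores, and its short form, made after strong activity, breaks that link. The brightest of its 6 probe sets gave 2503 to 6871 (median 4537) in hidden platform rats. In visible platform rats it gave 2108, 3531, 2130 and 2134 on the 4 arrays kept, and 2250, 7925, 1982 and 1783 on arrays 67, 68, 33 and 97. Thus 7 of the 8 visible platform arrays lay at or under 3531 and array 68 lay above every hidden platform array. The Homer1 difference was 0.82 ± 0.31 over all arrays (limma adjusted p = 0.270) and 0.93 ± 0.24 without those of low correlation, and it passed with array weights (adjusted p = 0.00266). Over the 6 probe sets the difference was positive in 5, and in all 6 without the arrays of low correlation, where it ran from 0.30 ± 0.19 to 1.01 ± 0.30. The 6 probe sets read the same RNA samples and are not replicates, and which Homer1 transcript each detects is not given in the sources used here.

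Within the ranges of animal numbers that held both groups (26 to 50, 51 to 75 and 76 to 100), the Homer1 difference was 0.88, 0.70 and 0.72. Each range held few arrays, with low correlation in each (33, 67, 68, 81 and 97). The range 26 to 50 held hidden platform arrays 42, 45 and 49 and visible platform arrays 31, 32 and 33. The range 51 to 75 held hidden 53 and 54 and visible 67, 68 and 69. The range 76 to 100 held hidden 81, 84 and 89 and visible 96 and 97. The labels do not call these ranges batches, and animals numbered 1 to 25 included hidden but no visible platform rats. Yoked rats had a Homer1 median of 3099, cage controls of 4029 and impaired hidden platform rats of 4942, against 2132 in visible platform rats. Hidden platform rats differed from yoked rats by 0.65 ± 0.31 and visible platform rats by −0.17 ± 0.35, and on the arrays kept by 0.68 ± 0.20 and −0.26 ± 0.26.

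The regions before the start of Homer1, an activity-driven gene, and of Grpel1, the higher gene of smallest p, are shown because promoters of activity-driven genes are often searched for the cyclic AMP response element bound by CREB. The sequences are from RefSeq on build GRCr8 and hold the 250 bases before the annotated start, 5′ to 3′ on the strand of the gene. They lie at chr2:26278762-26279011 (plus strand) and chr14:78522869-78523118 (minus strand), upstream of the genes. Capitals mark the core TGACG searched on both strands.
Homer1: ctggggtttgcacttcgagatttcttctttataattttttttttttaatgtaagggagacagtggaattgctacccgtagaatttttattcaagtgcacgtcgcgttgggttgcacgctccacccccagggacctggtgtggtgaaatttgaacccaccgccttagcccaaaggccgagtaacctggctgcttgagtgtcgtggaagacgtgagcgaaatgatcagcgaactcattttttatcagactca
Grpel1: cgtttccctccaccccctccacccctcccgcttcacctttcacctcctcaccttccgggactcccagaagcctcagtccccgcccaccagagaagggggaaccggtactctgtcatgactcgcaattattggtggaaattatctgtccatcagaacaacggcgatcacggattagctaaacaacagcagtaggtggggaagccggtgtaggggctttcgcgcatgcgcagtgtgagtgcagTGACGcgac
The full element TGACGTCA was found in neither window and occurs in 1.6% of 33469 rat promoters of that table. The core TGACG, which is contained in the full element, was found at 1 place in Grpel1, starting 9 bases before the start, and not in Homer1, and occurs in 18.2% of those promoters. A match is a description of letters, and the arrays give no measure of binding.

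Immediate early transcription factors showed no shared direction. Of 18 measured, 7 lay higher and 11 lower, with a median log2 difference of −0.01 beside −0.06 over all 3234 genes. None passed the adjusted threshold, and an unadjusted p under 0.05 was reached by 1 in each direction, Nr4a3 (0.68 ± 0.27) and Id1 (−0.66 ± 0.27). Without the arrays of low correlation these gave 0.48 ± 0.27 and −0.15 ± 0.22. A further Nr4a3 probe set gave −0.32 ± 0.34. Egr1, the zinc-finger factor used as a marker of active CA1 neurons, gave −0.01 ± 0.40, with signals of 13141 to 32638 in hidden and 11836 to 49164 in visible platform rats. Egr1 without the arrays of low correlation gave 0.44 ± 0.25. Its 3 other probe sets gave 0.87 ± 0.36, −0.10 ± 0.41 and −0.31 ± 0.34, so the Egr1 probe sets disagreed in sign. Fos, the partner of Jun in the AP-1 factor, gave −0.43 ± 0.31 and −0.28 ± 0.22.

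Egr2, singled out after its values were seen, moved from −0.00 ± 0.33 over all arrays to 0.95 ± 0.29 (unadjusted p = 0.00201) without those of low correlation. Over the whole list the median went from −0.01 to 0.12 when these arrays were removed.

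Effector immediate early genes encode the synaptic and signalling proteins of the early response. They lay higher in 12 of 14 cases with a median of 0.31. Of the 14, 3 lay higher at an unadjusted p under 0.05, beside 6.34% of all genes on the higher side. None of the 14 passed the adjusted threshold. Dusp6, a phosphatase that turns off the MAP kinase ERK, gave 1.14 ± 0.41 over all arrays and 0.46 ± 0.28 without those of low correlation. Nptx2, a secreted protein that clusters AMPA receptors, gave 0.55 ± 0.22 on its brighter probe set and −1.11 ± 0.31 on the other, and −0.01 ± 0.18 and −0.92 ± 0.33 without the arrays of low correlation. Arc, which carries AMPA receptors away from the synapse, gave 1521 to 3630 in hidden and 1031 to 2804 in visible platform rats, a difference of 0.18 ± 0.32 over all arrays and −0.04 ± 0.22 without those of low correlation. Ptgs2, the inducible cyclooxygenase, gave 0.13 ± 0.33 and −0.67 ± 0.37, with a further probe set at −0.46 ± 0.42 and 0.49 ± 0.37. Without the arrays of low correlation 9 of the 14 lay higher, with a median of 0.19 beside −0.03 over all genes, and 1 of them, Homer1, had an unadjusted p under 0.05.

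**Figure D3:**
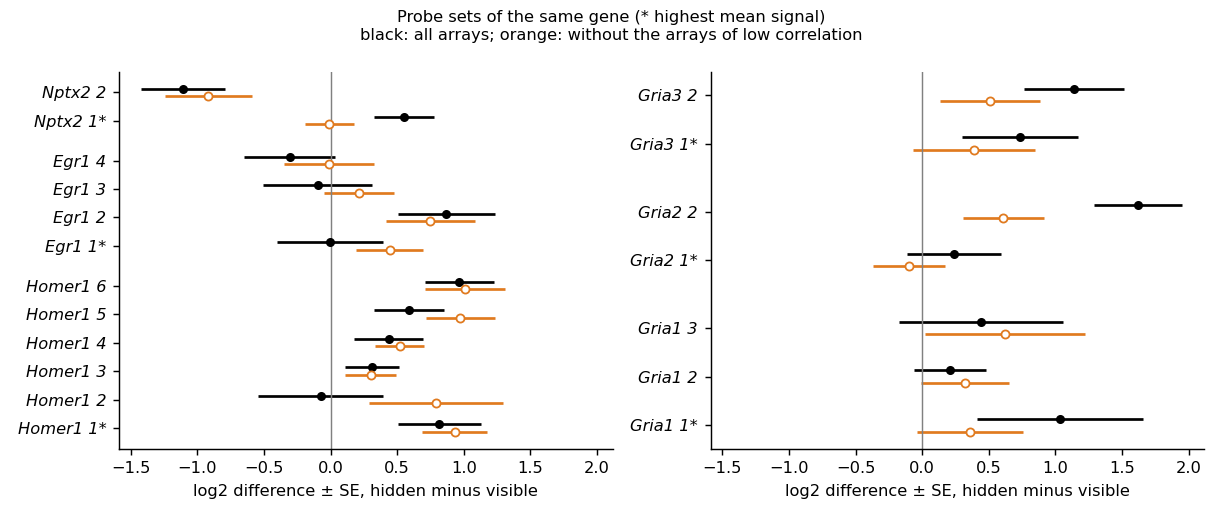
Log2 difference with its SE, hidden minus visible platform, for each probe set of Homer1, Egr1 and Nptx2 (left) and of the AMPA receptor subunits Gria1, Gria2 and Gria3 (right), in 24-month rats. Black points use all arrays and open orange points leave out those of low correlation; the 6 Homer1 open points lie above 0, while Egr1, Nptx2 and Gria2 probe sets differ among themselves.

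Among glutamate receptor subunits, the 2 probe sets of Gria2 gave differences of unlike size. The smallest p of all 5244 probe sets belonged to a probe set of Gria2, the AMPA receptor subunit that sets calcium permeability. It gave 348.7 to 993 in hidden and 33.7 to 451.2 in visible platform rats, a difference of 1.62 ± 0.33 (limma adjusted p = 0.0562), and 0.61 ± 0.30 without the arrays of low correlation. The brighter Gria2 probe set gave 0.24 ± 0.35 and −0.10 ± 0.27, with signals of 552.6 to 1981 in hidden and 145.8 to 2887 in visible platform rats. Gria1 gave 1.03 ± 0.62 over all arrays and 0.36 ± 0.40 without those of low correlation, with further probe sets at 0.21 ± 0.27 and 0.44 ± 0.61. Gria3 gave 0.74 ± 0.44 over all arrays and 0.39 ± 0.46 without those of low correlation. Its dimmer probe set gave 1.14 ± 0.37 (limma unadjusted p = 0.00373) and 0.51 ± 0.38. Of 7 AMPA and kainate receptor genes 4 lay higher, with a median of 0.22 (0.18 without those arrays). Read on the probe set of highest mean signal per gene, 0 of the 7 reached an unadjusted p under 0.05 in limma.

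Of 7 NMDA receptor genes 5 lay lower, with a median of −0.45. Of the 7, 2 lay lower at an unadjusted p under 0.05, beside 7.51% of all genes on the lower side. These were Grin2d (−0.67 ± 0.25) and Grin3a (−0.91 ± 0.41), both of low signal. On the arrays kept they gave −0.14 ± 0.25 and −0.49 ± 0.46. Their other probe sets gave −0.29 ± 0.35 and −0.40 ± 0.44 over all arrays. On the arrays kept these probe sets gave −0.04 ± 0.34 and 0.21 ± 0.40. Grin1, the obligatory subunit, gave −0.45 ± 0.38 and −0.19 ± 0.33, Grin2a −0.50 ± 0.27 and −0.00 ± 0.27, and Grin2b −0.23 ± 0.21 and 0.04 ± 0.16. The NMDA receptor median was −0.14 without the arrays of low correlation.

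Among metabotropic receptor genes, Grm3, a receptor that lowers cyclic AMP and is found on astrocytes as well as neurons, gave 660 to 4068 (median 1611) in hidden platform rats. In visible platform rats 7 arrays lay between 488.3 and 826.4 and array 96 at 1715. The Grm3 difference was 1.16 ± 0.38 (limma adjusted p = 0.270) and 1.05 ± 0.35 without the arrays of low correlation. The Grm3 median was 2585 in yoked, 1286 in cage control and 1894 in impaired hidden platform rats. Within the same number ranges, each with few arrays and some low correlation, the Grm3 difference was 1.97, 1.67 and 0.31. Of 14 GABA and glycine receptor genes 9 lay lower, with a median of −0.16 that was −0.05 without the arrays of low correlation.

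Signalling genes downstream of these receptors were spread around 0. Of 18 calcium/calmodulin kinase and phosphatase genes 11 lay higher, with a median of 0.08, of 22 CREB and cyclic nucleotide genes 12 (median 0.04), and of 18 protein kinase C and MAP kinase genes 11 (median 0.06). On the arrays kept these medians were 0.00, 0.04 and −0.02. Camk2n1, an inhibitor of CaM kinase II, gave −0.96 ± 0.47 over all arrays and −1.64 ± 0.56 (unadjusted p = 0.00555) without those of low correlation, on a low signal of 14.5 to 262.7 in hidden and 45.6 to 644.9 in visible platform rats. Ppp1r1a, an inhibitor of protein phosphatase 1, gave −0.61 ± 0.27 and −0.62 ± 0.28. Akap5, the anchor of protein kinase A at the postsynapse, gave 0.77 ± 0.34 and 0.74 ± 0.33. Creb1 gave −0.73 ± 0.40 and 0.32 ± 0.38, so its direction changed with the arrays of low correlation. The Camk2a probe set was dim, at 30.5 to 210.3.

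Synaptic and structural genes gave small medians. Of 25 synaptic vesicle genes 14 lay higher (median 0.08) and of 20 postsynaptic scaffold genes 14 lay lower (median −0.20), with medians of −0.04 and −0.10 on the arrays kept. Syn1, which tethers vesicles to actin, gave 217.2 to 955.5 with a median of 492.5 in hidden and 527.9 to 1772 with a median of 639.6 in visible platform rats. The Syn1 difference was −0.71 ± 0.24 and −0.64 ± 0.23 without the arrays of low correlation. Against yoked rats, hidden platform rats differed in Syn1 by −0.70 ± 0.24 and visible platform rats by 0.01 ± 0.26, and on the arrays kept by −0.60 ± 0.19 and 0.05 ± 0.25. Snap25, a membrane fusion protein, gave 0.77 ± 0.38 and 0.02 ± 0.31. Cdh2, the neuronal cadherin, gave 1.00 ± 0.34 and 0.70 ± 0.39. Of 24 cytoskeleton and axon growth genes 14 lay higher (median 0.07, and 0.02 on the arrays kept), among them Tubb2b, a neuronal tubulin, at 0.68 ± 0.33 and 0.75 ± 0.23.

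Receptors and growth factors of low signal lay lower as groups over all arrays. Of 28 monoamine and acetylcholine receptor genes 24 lay lower, with a median of −0.45. Of the 28, 5 lay lower at an unadjusted p under 0.05, beside 7.51% of all genes on the lower side. Of 35 neurotrophin and growth factor genes 29 lay lower, with a median of −0.29. Without the arrays of low correlation the medians were 0.01 and −0.10, and 14 of the 28 and 21 of the 35 lay lower. Bdnf, the neurotrophin tied to CA1 plasticity, gave −0.32 ± 0.31 and −0.49 ± 0.34, and its receptor Ntrk2 0.50 ± 0.32 and 0.02 ± 0.26. Further Bdnf probe sets gave −0.13 ± 0.30 and −0.54 ± 0.31 over all arrays. These became 0.13 ± 0.33 and −0.10 ± 0.27 without the arrays of low correlation. Corticosteroid genes lay higher in 10 of 12 cases (median 0.31, and 0.10 without those arrays), with the receptors Nr3c1 at 0.19 ± 0.24 and 0.11 ± 0.21, and Nr3c2 at 0.51 ± 0.29 and 0.34 ± 0.26. A further Nr3c1 probe set gave −0.55 ± 0.30. Of 32 voltage-gated channel genes 20 lay lower (median −0.13, and −0.08 on the arrays kept).

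Markers were read to describe the tissue labelled CA1, and whether they tell CA1 from neighbouring fields was not tested. Hpca, a calcium sensor abundant in CA1, read 2750 to 15270 over the 21 arrays, Nrgn 7080 to 53860 and Itpka 143.7 to 7312. Camk2a, read beside them, was dim at 30.5 to 210.3. The probe set of Slc17a7, a glutamate transporter of these neurons, was left out as dim at 5.8 to 96.9. Of 15 CA1 and pyramidal neuron markers 11 lay higher (median 0.20, and 0.08 without the arrays of low correlation). Their summed signal was 80207 to 124857 in hidden platform rats, 36782 to 173615 in visible platform rats and 77892 to 107195 on the 4 visible platform arrays kept. Atp2b1, a plasma membrane calcium pump, gave 0.97 ± 0.37 and 0.72 ± 0.26, with further probe sets at −0.47 ± 0.49 and 0.44 ± 0.34. Cnih2, an auxiliary protein of AMPA receptors, gave −0.74 ± 0.31 and −0.67 ± 0.26. In such a punch, fewer cells of a type and less RNA per cell cannot be told apart.

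Markers of other cell types had signals above 0 on every array, which by itself does not show that a transcript was detected. Of 24 endothelial and mural markers 22 lay lower, with a median of −0.44 that was −0.05 without the arrays of low correlation. Their summed signal was 6076 to 13453 in hidden and 7542 to 28707 in visible platform rats, and 7542 to 11601 on the visible platform arrays kept. Of 17 oligodendrocyte genes 12 lay higher (median 0.28, and 0.11 without those arrays), with sums of 16728 to 32715 and 13221 to 27579. Mbp, a myelin protein, read 46.1 on visible platform array 68 and 1913 to 5245 on the other 7. Of 24 astrocyte markers 13 lay higher (median 0.08), of 20 microglia and complement genes 8 (median −0.14) and of 19 interneuron markers 10 (median 0.05). On the arrays kept these medians were 0.07, −0.01 and −0.06. The summed signal of astrocyte markers ran from 112147 to 192342 in hidden and from 71218 to 319703 in visible platform rats. For microglia and complement genes the sums were 10417 to 18575 and 10859 to 15368, and for interneuron markers 14378 to 22662 and 15412 to 26629. Ttr, the transthyretin of the choroid plexus, read 331 to 5601, and the 7 choroid plexus and ependymal markers had a median difference of −0.41 that was 0.04 without the arrays of low correlation. The choroid plexus sums were 1627 to 7431 in hidden and 2312 to 6215 in visible platform rats, those of 6 blood genes 2299 to 9221 and 2032 to 6731, and those of 10 markers of neighbouring hippocampal fields 5486 to 10128 and 6052 to 8779. The part of tissue composition in the differences above was not tested.

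Npy, a peptide of hippocampal interneurons, gave 353.9 to 934.5 with a median of 502.8 in hidden and 683.2 to 1219 with a median of 772.6 in visible platform rats. Of the 13 hidden platform arrays 11 lay below the visible platform mean. The Npy difference was −0.68 ± 0.25 (limma adjusted p = 0.270) and −0.62 ± 0.27 without the arrays of low correlation. Yoked rats had a Npy median of 602.3 and cage controls of 718.6.

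Metabolic and protein handling genes of high signal lay higher as groups over all arrays. Of 38 oxidative phosphorylation genes 27 lay higher (median 0.25), of 28 proteasome and ubiquitin genes 19 (median 0.23) and of 30 heat shock proteins and co-chaperones 22 (median 0.27). Over the arrays kept these medians were 0.02, −0.06 and 0.13, beside −0.03 over all genes. Heat shock and co-chaperone genes had 3 members at an unadjusted p under 0.05 in that fit, all higher, beside 3.25% of all genes higher. Grpel1, already named for its small p, was 1 of the 3. Prdx1, a peroxiredoxin that removes hydrogen peroxide, gave 0.99 ± 0.33 and 0.62 ± 0.30, whereas Prdx6 gave 0.91 ± 0.33 and 0.27 ± 0.22, with further Prdx6 probe sets at 0.19 ± 0.35 and 0.02 ± 0.34. Of 33 antioxidant genes 20 lay higher (median 0.10, and −0.00 on the arrays kept).

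Of 36 ribosomal protein genes 20 lay higher (median 0.06) over all arrays, and 24 lay lower (median −0.08) without those of low correlation. Of the 36, 5 lay lower at an unadjusted p under 0.05, beside 3.93% of all genes on the lower side in that fit. Rpl41, a small protein of the large subunit, gave 445.2 to 848.1 in hidden platform rats and 850.8 to 1117 in 7 of the visible platform rats, with array 67 at 430.5. The Rpl41 difference was −0.58 ± 0.21 and −0.62 ± 0.20 without the arrays of low correlation, where the groups did not overlap. Rpl39 gave −0.92 ± 0.29 and −0.59 ± 0.23. Of 27 cholesterol and lipoprotein genes 14 lay higher (median 0.00, and −0.01 on the arrays kept), with Cyp51, a demethylase of cholesterol synthesis, at 0.65 ± 0.24 and 0.51 ± 0.19, and 3 further probe sets at 0.40 ± 0.26, 0.10 ± 0.35 and 0.10 ± 0.44. Sqle, the epoxidase of the same pathway, gave 1.26 ± 0.43 and 0.21 ± 0.22. Glycolysis and glucose transport genes had a median of −0.03 with 13 of 27 higher, and apoptosis genes a median of −0.21 with 5 of 14 higher. On the arrays kept these medians were −0.13 and −0.03.

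**Figure D4:**
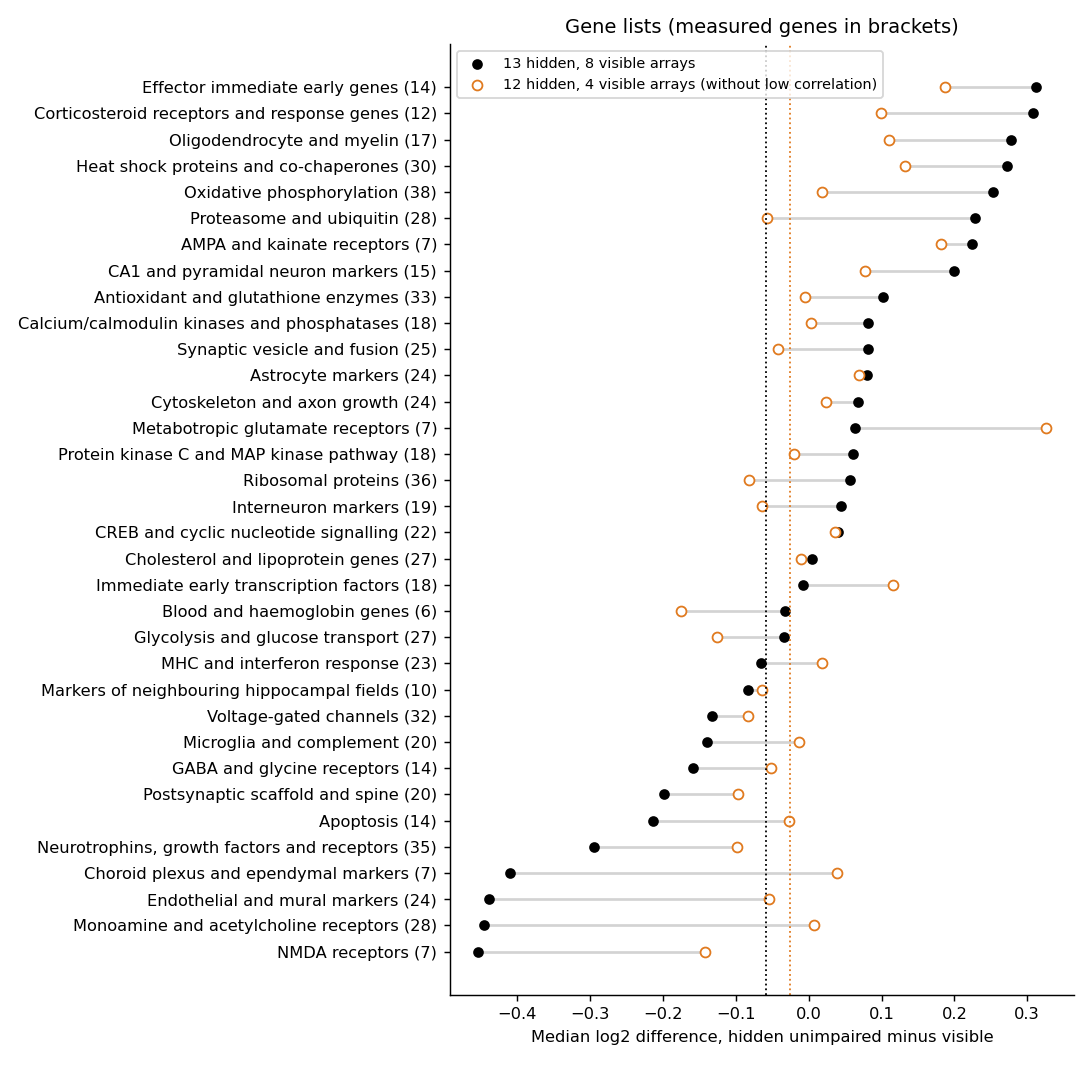
Median log2 difference, hidden unimpaired minus visible platform at 24 months, for 34 gene lists with the number of measured genes in brackets. Black points use 13 and 8 arrays, open orange points 12 and 4, and dotted lines mark the median of all 3234 genes in each; most lists move toward that line when the arrays of low correlation are left out.

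The same contrast was available in 3-month rats, with 6 hidden and 4 visible platform arrays, and the difference between the ages was tested in 63 arrays. The young hidden platform rats carry no learning label, so they were not narrowed to unimpaired learners. No probe set passed for the difference between ages (limma, 0.0% called), 186 had an unadjusted p under 0.05 and the smallest adjusted p was 0.997. With array weights 129 passed, 44 higher and 85 lower. The young contrast by itself had 0 probe sets passing in limma and 330 at an unadjusted p under 0.05. Of the 4 young visible platform arrays 2 were of low correlation, and of the 6 young hidden platform arrays 1.

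By the smallest unadjusted p, the genes with a more positive difference at 24 months were Ero1b, an oxidase of the endoplasmic reticulum, Tpp2, a large peptidase, and Myadm, a membrane protein. Ero1b gave 0.52 ± 0.19 at 24 months and −0.71 ± 0.28 at 3 months (limma adjusted p of the difference 0.997). Tpp2 gave 0.59 ± 0.22 and −0.81 ± 0.33, with further probe sets at 0.42 ± 0.32 and −0.75 ± 0.31 at 24 months, and Myadm 0.45 ± 0.21 and −0.77 ± 0.30. In the other direction, Npy gave −0.68 ± 0.25 at 24 months and 1.44 ± 0.47 at 3 months. The young Npy difference was 0.02 ± 0.38 without the arrays of low correlation, among them the young visible platform array of the lowest Npy signal, 25.2. Clpb, a mitochondrial disaggregase, gave −0.22 ± 0.26 and 1.48 ± 0.41, and Pcbp4, an RNA-binding protein, −0.41 ± 0.20 and 0.77 ± 0.30. Apart from Npy, the 3-month values of these genes are given over all arrays only.

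Homer1 differed by 0.82 ± 0.31 at 24 months and by −1.06 ± 0.47 at 3 months, where signals were 2006 to 5480 in hidden and 3494 to 20993 in visible platform rats. The 3-month Homer1 difference was −0.63 ± 0.36 without the arrays of low correlation. The age difference in Homer1 was 1.88 ± 0.58 (unadjusted p = 0.00185, limma adjusted p = 0.997), and 1.56 ± 0.44 without the arrays of low correlation. Of the 10 higher genes at 24 months 8 had a positive difference at 3 months, and of the 10 lower genes 7 had a negative one. Without the arrays of low correlation these counts were 5 and 6. The share of all genes with the same sign at both ages was not computed, so these counts do not show agreement between the ages. At 3 months Slc4a4 gave 0.89 over all arrays and 1.19 ± 0.48 without those of low correlation, and Ormdl3 gave 1.24 and 0.20 ± 0.39. Casp2 gave −0.71 and 0.12 ± 0.63, Pak2 −0.24 and −0.14 ± 0.35, and Grpel1 0.03 and −0.28 ± 0.33.

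**Figure D5:**
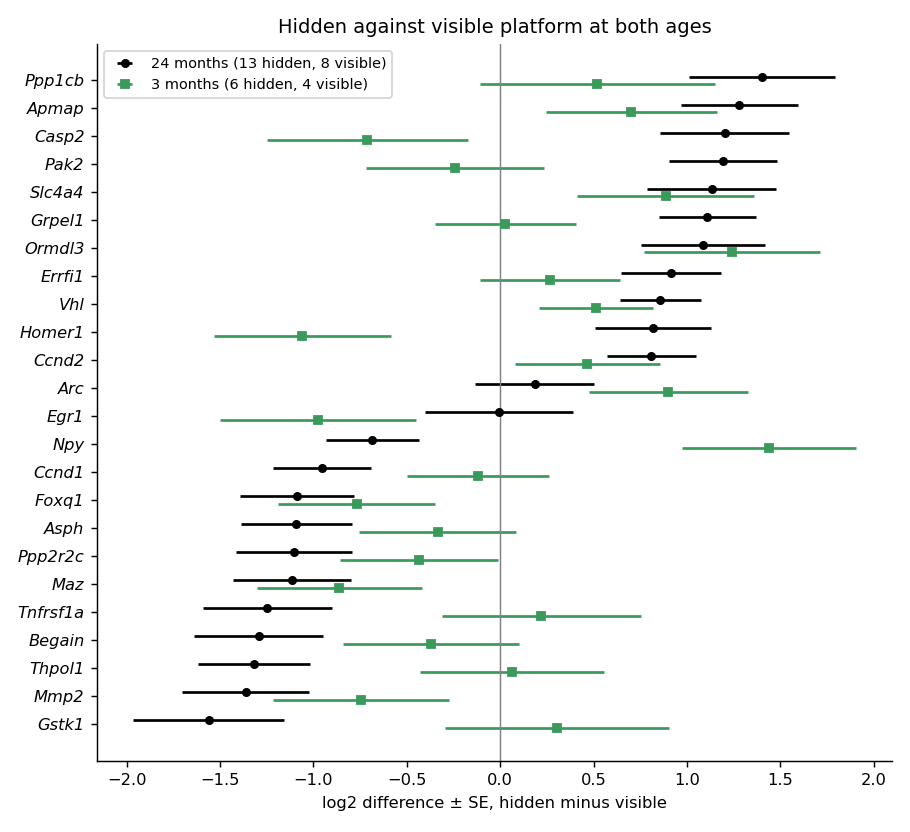
Log2 difference with its SE, hidden minus visible platform, at 24 months (black circles, 13 and 8 arrays) and 3 months (green squares, 6 and 4 arrays), for the 10 higher and 10 lower genes of smallest p at 24 months and for Homer1, Arc, Egr1 and Npy. Homer1 and Npy lie on opposite sides of 0 at the 2 ages; no difference between ages passed the adjusted threshold.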

How the data were processed

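Messenger RNA was measured on 1 Affymetrix array per animal. Per the submitters' processing notes MAS5 produced the deposited intensity values, which are linear and number 1 for each probe set on an array. Trimmed means of 500 on every array show that arrays had been scaled before deposit. Detection calls, probe sequences and scan dates were not used here.

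Of 8799 probe sets, 5244 were tested, after 59 controls and the dimmest 40% (mean over the 79 arrays) had been dropped. Symbols came from the platform annotation and were updated through RefSeq. Each gene was read on its probe set of highest mean signal (3234 genes). Values were tested as log2(signal + 15) with limma 3.58.1 in R 4.3.3 (lmFit, eBayes with trend), two-sided, on the 44 aged arrays with 1 mean per group, and on 63 arrays for the age difference. Each SE came from these fits, where 1 spread per probe set was shared by all groups. The larger spread among visible platform arrays was not modelled except through array weights, so an SE or p may be too small. A difference on this scale understates that of dim genes. The scripts were tested on simulated data.

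The comparison, the 34 gene lists and the low-correlation limit were chosen with earlier results of these data known. Named genes were the 10 of smallest p in each direction, the 3 of smallest p in each list, a set of textbook plasticity genes, and the 3 of smallest p in each direction of the age difference. Alternatives covered pseudocounts of 1 and 60, the filter, normalization, array weights, arrays that stood apart, control-probe covariates, animal-number ranges and single arrays. No 2 arrays held identical values.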

Additional observations from a re-analysis of the deposited data

Results flagged for a closer look

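Groups of 4 to 10 arrays were searched for arrays that lay far from the rest of their group. An array was marked when its gap to the nearest array took up an unusually large share of the group's range. For genes, gap and range were taken on the log2 scale used for testing, while the signals printed beside each share are linear. In the visible platform group of 24-month rats 128 named genes and 4 quality values were examined, and 18 of these 132 were marked. For genes whose levels in other groups are given, 41 further sets of arrays were examined and 5 were marked. Chance marks about 1 in 20 such sets. The 132 sets of the visible platform group read the same arrays, so their marks are not independent. The 18 marks are therefore not 18 separate findings, and most fell on arrays already known for low correlation.

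Array 68, one of the arrays of low correlation, was the lowest in 7 of these genes or values. Its signals were Ormdl3 143 against 955 to 2223 (share 0.685), Sv2a 304 against 994 to 1334 (share 0.798), Atp2b1 333 against 1078 to 2485 (share 0.581). Further low signals on array 68 were Mbp 46.1 against 1913 to 5245 (share 0.775), Arc 1031 against 1975 to 2804 (share 0.649), Clpb 94.5 against 267 to 376 (share 0.743). Its log2 3' to 5' ratio was −0.32 against 1.19 to 2.44 (share 0.549). Array 68 was the highest for Homer1 7925 against 1783 to 3531 (share 0.543) and for P2ry12 2427 against 415 to 865 (share 0.587).

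Array 67, also of low correlation, was the lowest for Kcnc2 8.7 against 261 to 867 (share 0.679), RT1-M3-1 122 against 332 to 436 (share 0.778), Rpl41 430 against 851 to 1117 (share 0.712). It was the lowest as well for Ube2b 185 against 898 to 2353 (share 0.615) and Gria2 146 against 756 to 2887 (share 0.542), and the highest for Syn1 1772 against 528 to 870 (share 0.590) and Calb2 1176 against 273 to 517 (share 0.568). Array 33, of low correlation too, was the lowest for Camk2a 30.5 against 69.9 to 111 (share 0.614). Array 96 was the highest for Grm3 1715 against 488 to 826 (share 0.584) and is not among the arrays of low correlation. Arrays 67 and 68 thus account for 16 of the 18 marks, and the part of RNA quality, amplification or tissue in them was not tested.

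In the other aged groups, yoked array 63 was the lowest for Grpel1 at 444 against 1329 to 2889 (share 0.582) and the highest for Syn1 at 1869 against 572 to 772 (share 0.749). Yoked array 25 was the highest for Vhl at 2069 against 918 to 1305 (share 0.569). Pak2 was lowest on cage control array 98 at 417 against 1034 to 1398 (share 0.749) and on impaired hidden platform array 8 at 213 against 855 to 1869 (share 0.634).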

How the results depend on the processing

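The count of probe sets passing was 0 for the hidden against visible comparison under 11 of 15 alternatives. It was 1 with the lowest 60% of mean signal left out, 10 when arrays with strong disagreement among probe sets of a gene were dropped, 7 in a fit over all 79 arrays and 369 with array weights. Leaving out each of the 21 arrays in turn gave 0 to 2. The count rose above 0 without visible platform arrays 31, 32 or 69 and hidden platform array 7 (Gria2), without hidden platform array 81 (Gria2, Vcam1) and without visible platform array 96 (Gria2, Grpel1). The cause of these changes was not tested. For the age difference, 13 of 14 alternatives gave 0 and array weights gave 129, and leaving out each of the 31 arrays gave 0 every time. Adjusted for the 3' to 5' ratio, 372 probe sets of the main comparison had an unadjusted p under 0.05, adjusted for the spike-in signal 357, and with quantile normalization 507, beside 771. Of the 128 named genes, 110 kept their sign under every alternative fit, a count given without the share over all genes. Most were named for a small p in this contrast and the fits share arrays, so the count is no independent repeat. No paired analysis was possible because the titles give each animal its own number and no number recurs across groups. The number of arrays and the dimness of many probe sets limit precision.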
